A study of Chlorocebus aethiops with 12 samples.

Results

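CX3CR1 and its ligand CX3CL1 were followed across all groups of the study by every array probe that carries their accessions. CX3CR1 (NM_001337) had 1 probe, A_23_P407565, and CX3CL1 (NM_002996) had 3, A_23_P37727, A_24_P381901 and A_24_P390495, which makes 2 of 32379 accessions and 4 of 41000 probes on the array. All 4 were among the 31232 probes that entered the tests. The pair was chosen by measured values of these same arrays. Which comparison was used is not stated in the sources used here. It is taken to be that of cells with and without MDFIC, and the Dex values may have entered the choice too, which the p-values for Dex do not allow for. The differences between cells with and without MDFIC are therefore given as descriptions, without a test, and the tests below concern the hormone.

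The cells were COS-1, an established line from African green monkey kidney with fibroblast-like growth. All groups carried transfected S211A, a glucocorticoid receptor (GR) changed at a phosphorylation site, and no group without it was analysed here. S211A cells received the mutant alone, and S211A+MDFIC cells also received MDFIC, a transcriptional regulator with a MyoD family inhibitor domain. In medium with charcoal-stripped serum, both then stood for 6 h under vehicle or dexamethasone (Dex, 100 nM), a synthetic glucocorticoid. This gave 4 groups of 3 biological replicates per the labels. The design asks how Dex and MDFIC each relate to RNA levels in cells with this receptor. RNA was read on 12 one-colour arrays whose probes were designed for human transcripts, and a level of one probe cannot be set against that of another.

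CX3CL1, also called fractalkine, is a chemokine made as a membrane protein with its chemokine domain on a mucin-like stalk. The proteases ADAM10 and ADAM17 cut it from the cell surface, which turns an adhesion molecule into a soluble attractant. CX3CR1 is its receptor, a G protein-coupled receptor that signals through inhibitory G proteins and is best known on monocytes, microglia, natural killer cells and T cells. In the kidney the ligand is known from endothelium and tubular epithelium, and glucocorticoids are known to lower many inflammatory chemokines.

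Of the 12 arrays, 67.8% to 80.7% of the probes were well above background, and arrays of one group correlated with r of 0.986 to 0.996. The arrays lay on 3 slides of 4. All S211A vehicle arrays shared slide 1 with replicate 1 of S211A Dex. On slide 2, replicates 2 and 3 of S211A Dex lay beside replicates 1 and 2 of S211A+MDFIC vehicle, whose replicate 3 lay on slide 3 with all S211A+MDFIC Dex arrays. The MDFIC probe A_32_P120567 (NM_199072) stood at -2.98 ± 0.05 in S211A vehicle and at 5.72 ± 0.10 in S211A+MDFIC vehicle (SD, n = 3), a log2 difference of 8.70 (limma adjusted p = 1.78e-08). The second MDFIC probe, A_23_P327022, differed by 0.025 under vehicle (limma adjusted p = 0.976). Under Dex it differed by -0.40 (limma adjusted p = 0.514), where A_32_P120567 differed by 8.82. The transfected receptor could not be checked, since no probe carries the accession listed for its gene, NR3C1. The 4 probes of the pair were well above background on all 12 arrays, and none of their spots had been marked as an outlier.

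CX3CR1 had 4 separate levels, one for each group. Levels are given as log2 of the processed signal relative to the 75th percentile of the array, so that a step of 1 is a 2-fold difference. In S211A vehicle the 3 arrays read -1.54, -1.47 and -1.59. In S211A Dex they read -2.18, -2.27 and -2.46. In S211A+MDFIC vehicle they read -3.87, -3.83 and -3.99, and in S211A+MDFIC Dex they read -4.62, -4.54 and -4.70. No group overlapped with another, and the smallest space between neighbouring groups was 0.55, between the vehicle and Dex arrays of S211A+MDFIC cells. Among all tested probes, 0.0672% showed their groups in this order without overlap. This order was read from CX3CR1 itself, and the pair was chosen by values of these arrays. The share is therefore a description and no support for the pattern. The processed signal behind these levels was 282 ± 30.5, 162 ± 13.8, 59.7 ± 3.37 and 35.6 ± 5.50 in the same order (SD, n = 3).

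**Figure D1:**
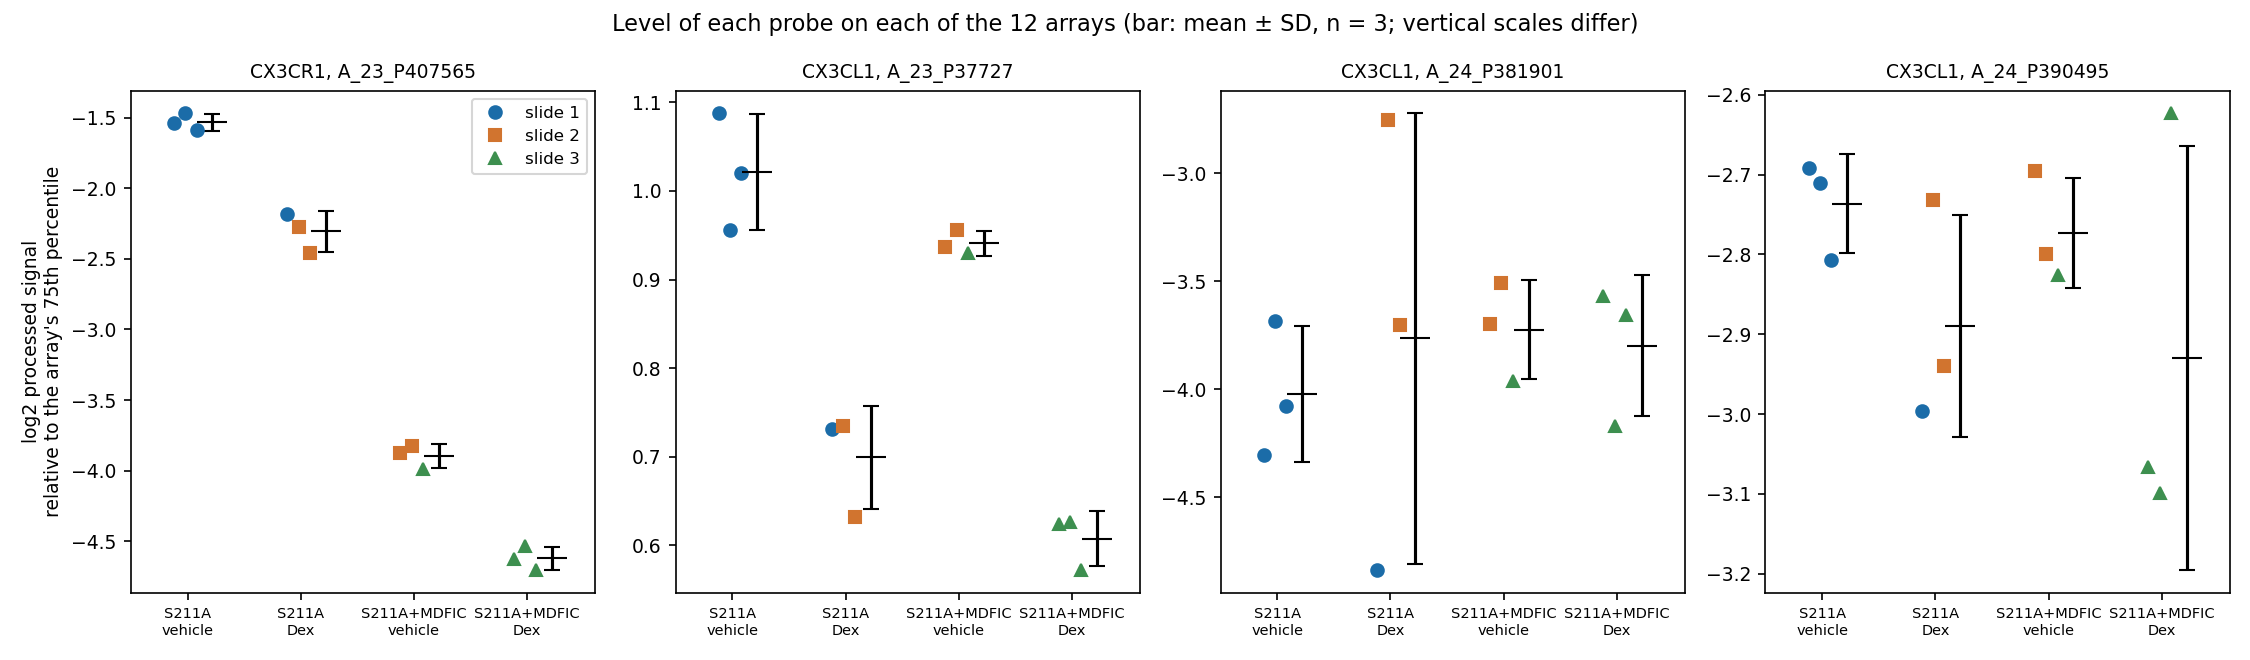
Level of each of the 4 probes on each array (vertical axis, log2 of the processed signal relative to the array's 75th percentile) by group (horizontal axis), with symbols for the slide and bars for the mean ± SD (n = 3). CX3CR1 has 4 levels without overlap, from a mean of -1.53 to a mean of -4.62. CX3CL1 probe A_23_P37727 has both Dex groups below both vehicle groups, and the other CX3CL1 probes overlap between groups. The vertical scales differ.

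Dex lowered CX3CR1 in S211A cells. The mean fell from -1.53 ± 0.06 to -2.31 ± 0.14 (SD, n = 3), a log2 change of -0.77 (SE 0.08, 95% interval -0.96 to -0.59, limma adjusted p = 0.000363) that left 58.5% of the vehicle level. All 3 Dex arrays lay below all 3 vehicle arrays. Of the probes tested, 6.14% were called in this comparison, 1.97% lower and 4.17% higher. The Dex arrays lay wholly below the vehicle arrays at 10.9% of probes and wholly above them at 14.7%. The median change of all probes was 0.02.

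Dex lowered CX3CR1 to a similar extent when MDFIC was present. The mean fell from -3.90 ± 0.08 to -4.62 ± 0.08 (SD, n = 3), a log2 change of -0.72 (SE 0.08, 95% interval -0.91 to -0.54, limma adjusted p = 0.000535), or 60.6% of the vehicle level. Again no Dex array reached the lowest vehicle array. In these cells 9.41% of the probes were called, 3.9% lower and 5.5% higher. The Dex arrays lay wholly below the vehicle arrays at 13.8% of probes and wholly above them at 16.9%. The difference between both Dex responses was 0.0505 on the log2 scale (SE 0.12, 95% interval -0.21 to 0.31, limma adjusted p = 0.896), and 0.195% of all probes were called for this difference, 0.189% higher and 0.0064% lower. The interval leaves room for responses that differ by up to 0.31, so equality of the responses is not shown.

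The size of the fall with MDFIC present rested on how the background was treated. The CX3CR1 spot had 9.31 to 10.8 times the intensity of its local background in S211A vehicle, 5.61 to 6.52 times in S211A Dex, 3.13 to 3.77 times in S211A+MDFIC vehicle and 2.23 to 2.94 times in S211A+MDFIC Dex. With normexp background correction, whose added offset shrinks differences of dim spots, the Dex change in S211A+MDFIC cells was -0.31 (limma adjusted p = 0.0289) in place of -0.72, and that in S211A cells was -0.65 (limma adjusted p = 0.000314). The difference between the responses was then 0.34 (limma adjusted p = 0.456).

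**Figure D2:**
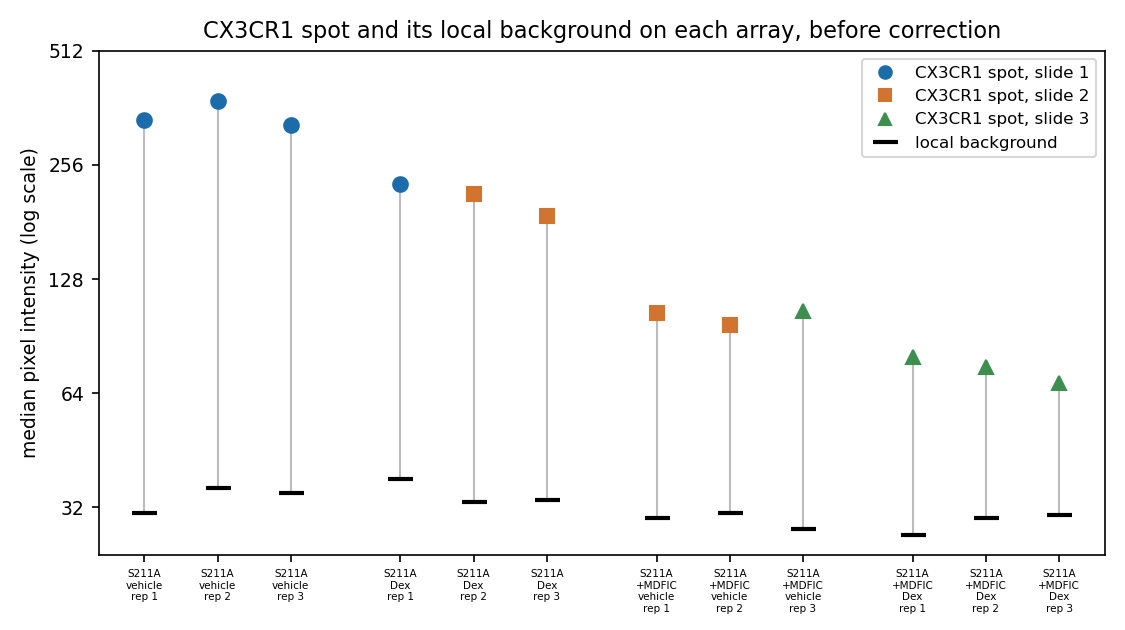
Median pixel intensity of the CX3CR1 spot (symbols, by slide) and of its local background (black bars) on each of the 12 arrays, before any correction, on a log scale. The spot lies 9.31 to 10.8 times above the background in S211A vehicle and 2.23 to 2.94 times above it in S211A+MDFIC Dex.

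Within slides the direction was the same as over all arrays. On slide 1 the single S211A Dex array lay 0.65 below the mean of the 3 vehicle arrays, and on slide 3 the 3 S211A+MDFIC Dex arrays lay 0.63 below the single vehicle array. With slide as a fixed block the changes were -0.65 (SE 0.10, limma adjusted p = 0.0163) and -0.63 (SE 0.10, limma adjusted p = 0.0232), and both remained called. These are the same within-slide differences, each resting on a single S211A Dex or S211A+MDFIC vehicle array, and not a second line of support.

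With MDFIC, CX3CR1 was lower under both treatments. Under vehicle the log2 difference between S211A+MDFIC and S211A cells was -2.37, or 19.4% of the level without MDFIC. Under Dex it was -2.31, or 20.1%. These were the lowest fitted differences of all 31232 probes in each comparison, where the probe medians were -0.0063 and 0.0011. Since the pair is taken to have been chosen on this difference, the rank only describes that choice. As background, all S211A+MDFIC arrays lay below all S211A arrays at 15.1% of probes under vehicle and 8.81% under Dex, and above them at 13% and 6.17%. Under vehicle 0.736% of probes were called, 0.378% lower and 0.359% higher. Under Dex 0.311% were called, 0.125% lower and 0.186% higher. Between the extremes, S211A vehicle and S211A+MDFIC Dex, the level differed by -3.09, which left 11.8%.

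No slide held both groups of either MDFIC comparison. Slide 2 held S211A Dex and S211A+MDFIC vehicle arrays, and there the S211A+MDFIC pair lay 1.48 below the S211A pair although the latter had received Dex. Within a group, slide 2 arrays lay 0.19 below the slide 1 array in S211A Dex, and the slide 3 array lay 0.14 below the slide 2 arrays in S211A+MDFIC vehicle. With slide as a fixed block the MDFIC differences were -2.13 under vehicle and -2.11 under Dex. These values join the slide 2 difference to a within-slide Dex change and compare no arrays of the same treatment directly. With normexp they were -1.65 and -1.31.

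CX3CL1 was read best by A_23_P37727, whose spots had 47.2 to 79.8 times the intensity of the local background. In S211A vehicle the arrays read 1.09, 0.96 and 1.02. In S211A Dex they read 0.73, 0.73 and 0.63. The S211A+MDFIC vehicle arrays read 0.94, 0.96 and 0.93, and the S211A+MDFIC Dex arrays read 0.62, 0.63 and 0.57. Every Dex array was thus below every vehicle array, whether or not MDFIC was present. Such a separation is common: it was seen at 10.9% of all tested probes in S211A and at 13.8% in S211A+MDFIC cells. The share with both together was not counted. The processed signal was 1649 ± 50.3, 1296 ± 49.3, 1709 ± 109 and 1332 ± 177 in these groups (SD, n = 3).

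Dex lowered this CX3CL1 reading by about the same amount in both kinds of cells. In S211A cells the log2 change was -0.32 (SE 0.05, 95% interval -0.44 to -0.21, limma adjusted p = 0.00498), or 80.0% of the vehicle level. In S211A+MDFIC cells it was -0.33 (SE 0.05, 95% interval -0.45 to -0.22, limma adjusted p = 0.00359), or 79.4%. The difference between the responses was -0.011 (95% interval -0.17 to 0.15, limma adjusted p = 0.966). Of all tested probes, 5.39% had a lower change than this one without MDFIC and 5.73% with it, whereas for CX3CR1 these shares were 0.548% and 1.03%.

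These calls for CX3CL1 did not hold with slide as a fixed block, where the changes were -0.29 (limma adjusted p = 0.139) and -0.32 (limma adjusted p = 0.106). On slide 1 the Dex array lay 0.29 below the mean of the vehicle arrays, and on slide 3 the Dex arrays lay 0.32 below the vehicle array. The slide block rests on these same differences, each with a single array in a group. Without scaling between arrays the changes were -0.35 and -0.37 and were not called (limma adjusted p = 0.187 and 0.139). With only the S211A groups in the fit, the change in S211A cells missed the threshold (limma adjusted p = 0.0654).

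**Figure D3:**
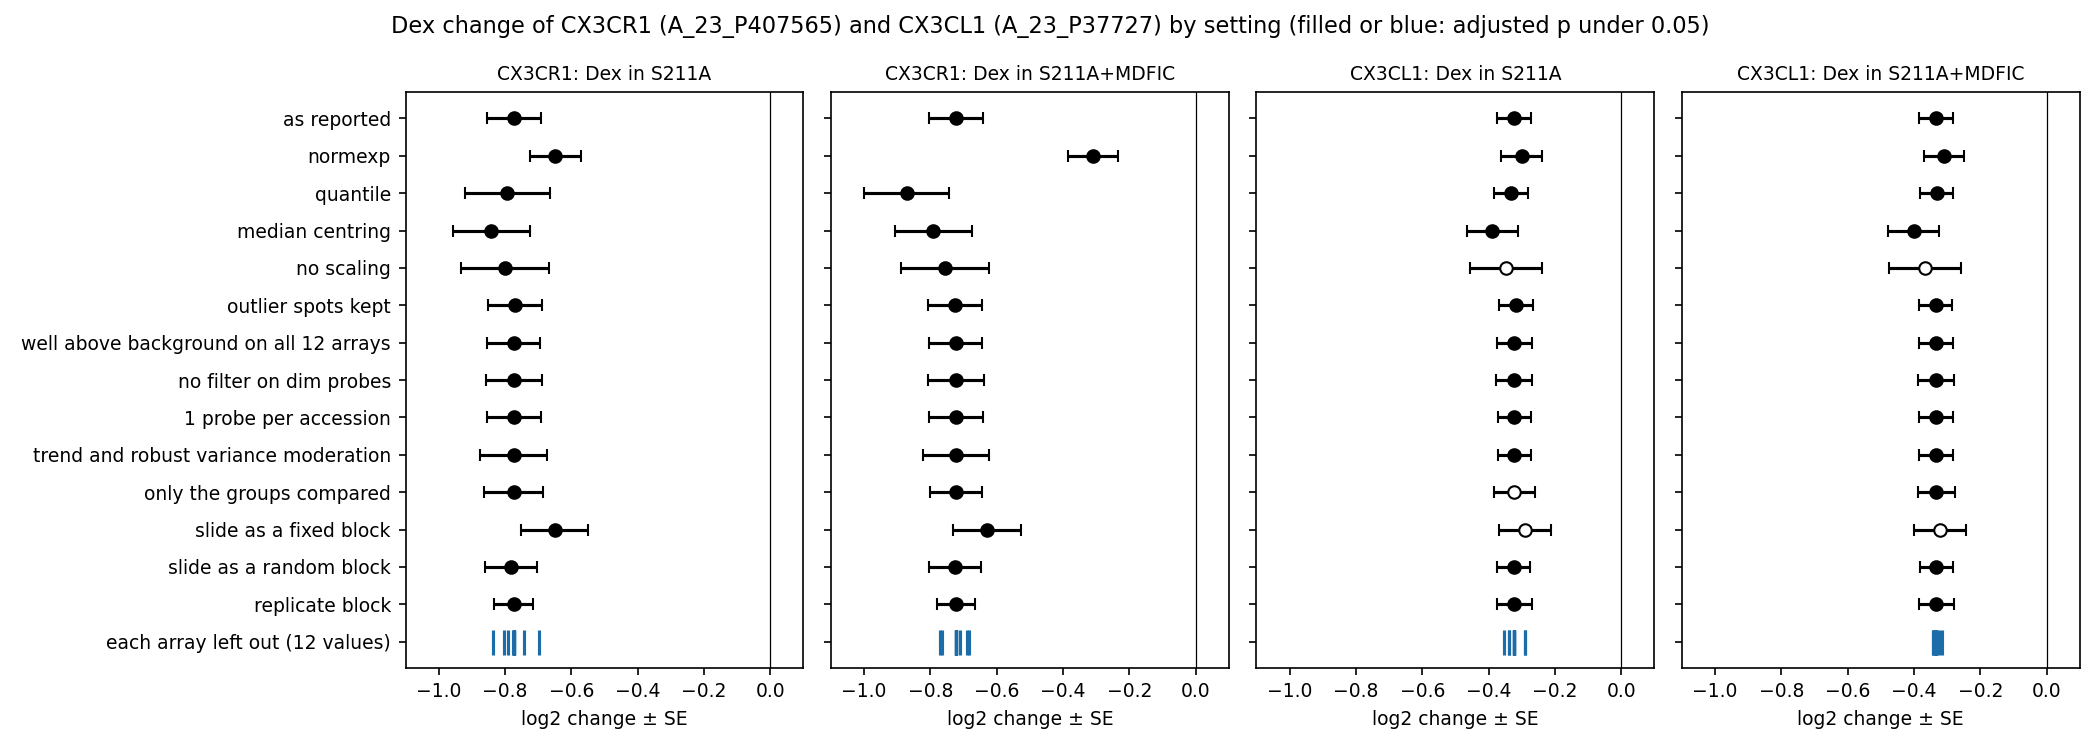
Log2 change under Dex (point, with SE as bar) of CX3CR1 and of CX3CL1 probe A_23_P37727 under each setting of the analysis (rows); filled points and blue ticks passed an adjusted p of 0.05. The CX3CR1 values stay between -0.87 and -0.31 and are called in every row, whereas the CX3CL1 values lie between -0.40 and -0.29 and are open without scaling, with slide as a fixed block and, in S211A, with only the groups compared.

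The other CX3CL1 probes did not pass the test in any comparison with Dex. A_24_P390495 read -2.69, -2.71 and -2.81 in S211A vehicle and -3.00, -2.73 and -2.94 in S211A Dex. It read -2.70, -2.80 and -2.83 in S211A+MDFIC vehicle and -3.07, -3.10 and -2.62 in S211A+MDFIC Dex. The groups overlapped in both kinds of cells. Its changes were -0.15 (95% interval -0.43 to 0.12, limma adjusted p = 0.55) and -0.16 (95% interval -0.43 to 0.12, limma adjusted p = 0.454), and these intervals include the changes of A_23_P37727. In S211A+MDFIC cells single arrays moved the value: it was -0.31 without Dex replicate 3 (limma adjusted p = 0.0827), -0.0876 without Dex replicate 1 (limma adjusted p = 0.768) and -0.0717 without Dex replicate 2 (limma adjusted p = 0.726). Its spots had 3.29 to 6.06 times the intensity of the local background.

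A_24_P381901 was the dimmest and most variable of the CX3CL1 probes, with 1.86 to 5.02 times the local background. S211A Dex spread from -4.84 on the slide 1 array to -2.75 on a slide 2 array, and the other groups lay between -4.31 and -3.51. The fitted changes were 0.26 (95% interval -0.70 to 1.22, limma adjusted p = 0.799) and -0.0746 (95% interval -1.04 to 0.89, limma adjusted p = 0.933). Without S211A Dex replicate 2 the change in S211A cells was -0.25, and with slide as a fixed block it was -0.81. The direction of this probe is therefore not settled by these arrays.

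MDFIC went with little difference in CX3CL1. At A_23_P37727 the log2 differences between S211A+MDFIC and S211A cells were -0.0805 under vehicle and -0.0916 under Dex. The groups overlapped under vehicle, and under Dex the S211A+MDFIC arrays lay below the S211A arrays by a space of 0.0059. Without scaling the differences were 0.0496 and 0.0314, while the median of all probes moved to 0.12 in both comparisons, so that relative to other probes this reading stayed below the median. A_24_P390495 differed by -0.0369 and -0.0398, and A_24_P381901 by 0.30 and -0.0332. The ligand thus had its vehicle groups highest and its Dex groups lowest at its bright probe, whereas the receptor had both S211A groups above both S211A+MDFIC groups.

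**Figure D4:**
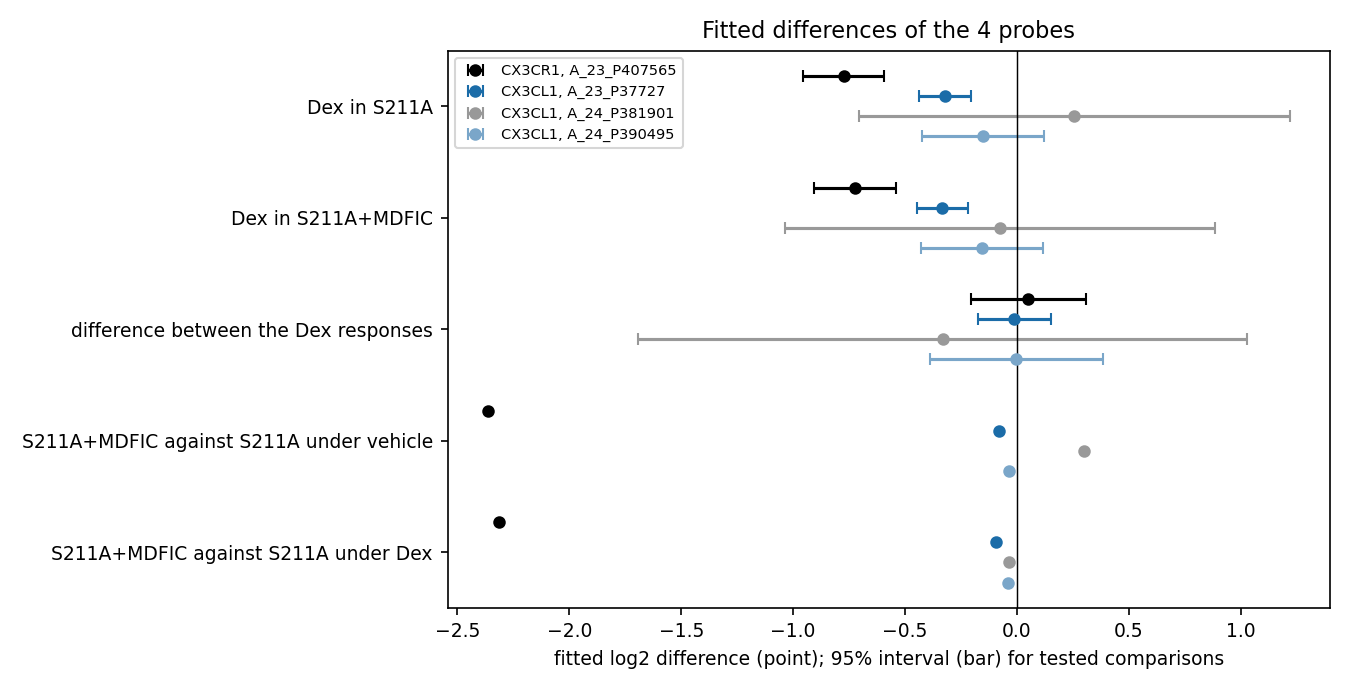
Fitted log2 differences (points, horizontal axis) of the 4 probes in the 5 comparisons, with 95% intervals (bars) for the 3 tested ones; the MDFIC differences are shown without intervals. CX3CR1 lies at -0.77 and -0.72 for Dex and at -2.37 and -2.31 for MDFIC, while the CX3CL1 probe A_23_P37727 lies at -0.32 and -0.33 for Dex and near 0 for MDFIC.

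Across the 12 arrays the CX3CR1 probe and the bright CX3CL1 probe correlated with r = 0.53, and the bright CX3CL1 probe and A_24_P390495 with r = 0.48. A_24_P381901 correlated with CX3CR1 at r = -0.17, with the bright CX3CL1 probe at r = -0.17 and with A_24_P390495 at r = 0.34, and CX3CR1 with A_24_P390495 at r = 0.26. These values describe arrays that share groups and slides. The probes most like CX3CR1 over the 12 arrays, among 31135 compared, carried the accessions NM_207014 (r = 0.985) and NM_138375 (r = 0.981). Likeness over the same arrays was how they were picked, so a shared group order is no finding. NM_207014 differed by -0.51 under vehicle and -0.48 under Dex with MDFIC, and by -0.17 and -0.14 with Dex. The next 3 were THC2577566, NM_004265 and NM_015401, with r of 0.965 to 0.972. The probe most like the bright CX3CL1 probe was that of PAX8 (NM_003466), a transcription factor of the kidney lineage, with r = 0.985, followed by NM_004907 (r = 0.982), which changed by -0.62 and -0.74 with Dex. PAX8 fell by 0.28 in S211A cells (limma adjusted p = 0.0128) and by 0.32 in S211A+MDFIC cells (limma adjusted p = 0.00469) under Dex. Both PAX8 calls were lost with slide as a fixed block (limma adjusted p = 0.155 and 0.141), and that in S211A cells also without S211A Dex replicate 3 (limma adjusted p = 0.0579).

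Many probes of other chemokine receptors were dim on these arrays. Of 28 probes for 20 receptor genes, 10 were not well above background on any array and 11 entered the tests. Of all 41000 probes, 31232 entered the tests. Since the probes were designed for human transcripts, a dim probe was not read as a low transcript level. CXCR4, the receptor of CXCL12, moved opposite to CX3CR1 under Dex. It rose from -1.37 ± 0.06 to 0.15 ± 0.11 in S211A cells (SD, n = 3; log2 1.52, SE 0.06, limma adjusted p = 1.03e-06) and from -1.55 ± 0.03 to 0.11 ± 0.05 in S211A+MDFIC cells (log2 1.66, limma adjusted p = 6.19e-07). ACKR3, a scavenging receptor of CXCL12, fell from 1.25 ± 0.11 to 0.82 ± 0.05 in S211A+MDFIC cells (log2 -0.43, limma adjusted p = 0.0183), a call lost without scaling (limma adjusted p = 0.0574), with slide as a fixed block (limma adjusted p = 0.108) and without S211A+MDFIC vehicle replicate 1 or 2 or Dex replicate 1 or 3 (limma adjusted p of 0.0563 to 0.0778). The other 9 and, in S211A cells, 10 tested receptor probes did not pass. The receptor counts of 1 and 2 among 11 stand beside 6.14% and 9.41% of all probes called in these comparisons. The median change of the 11 was 0.16 in S211A and 0.21 in S211A+MDFIC cells. For MDFIC, limma called 0 of the 11 under vehicle, with 2 at an unadjusted p under 0.05, and 0 under Dex, with 0 at an unadjusted p under 0.05. The shares of all probes called were 0.736% and 0.311%.

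Of 31 probes for 26 other chemokine genes, 17 entered the tests and 8 were not well above background on any array. In S211A cells limma called 0 of the 17 for Dex, with 3 at an unadjusted p under 0.05, where 6.14% of all probes were called. In S211A+MDFIC cells 1 was higher and 2 were lower, where 5.5% of all probes were called higher and 3.9% lower. CCL7, a monocyte attractant, fell from -2.95 ± 0.03 to -3.69 ± 0.15 (SD, n = 3; log2 -0.74, limma adjusted p = 0.00477), and this call was lost with slide as a fixed block (limma adjusted p = 0.0861). CXCL14 fell by 0.29 (limma adjusted p = 0.0479) and CCL4 rose by 0.34 (limma adjusted p = 0.036). The CXCL14 call was lost in 17 of 25 alternatives and the CCL4 call in 13 of 25, at limma adjusted p of up to 0.248 and 0.309. With 1 array left out, CXCL14 was called in 2 of 12 fits and CCL4 in 4 of 12. The median over the 17 was -0.0587 in S211A and 0.0046 in S211A+MDFIC cells. For MDFIC, limma called 0 of the 17 under vehicle and 0 under Dex, with 2 and 4 at an unadjusted p under 0.05. Of all probes, 0.736% and 0.311% were called in these comparisons.

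No probe for the proteases, G protein subunits and integrins that work with the pair was called in any of the 5 comparisons. With 12 probes, and 0.195% to 9.41% of all probes called, such a count is near the background and says nothing particular about these genes. The 3 probes of ADAM10 and ADAM17 changed by 0.0034 to 0.0402 with Dex in S211A cells and by -0.12 to -0.0713 in S211A+MDFIC cells. The 3 probes of the inhibitory G protein subunits GNAI1, GNAI2 and GNAI3 changed by 0.044 to 0.16 and by -0.28 to 0.23. The 6 probes of the integrin subunits ITGAV, ITGB3, ITGA4 and ITGB1, which bind CX3CL1 or mediate adhesion downstream of the receptor, changed by -0.43 to 0.13 and by -0.42 to 0.13. With Dex in S211A cells limma called 0 of these 12 probes, with 0 at an unadjusted p under 0.05, and in S211A+MDFIC cells 0, with 1 of the proteases, 3 of the G protein subunits and 1 of the integrins at an unadjusted p under 0.05. For the difference between the Dex responses it called 0, with 2 G protein probes at an unadjusted p under 0.05. For MDFIC it called 0 under vehicle, with 1 protease and 2 G protein probes at an unadjusted p under 0.05, and 0 under Dex, with 1 integrin probe.

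**Figure D5:**
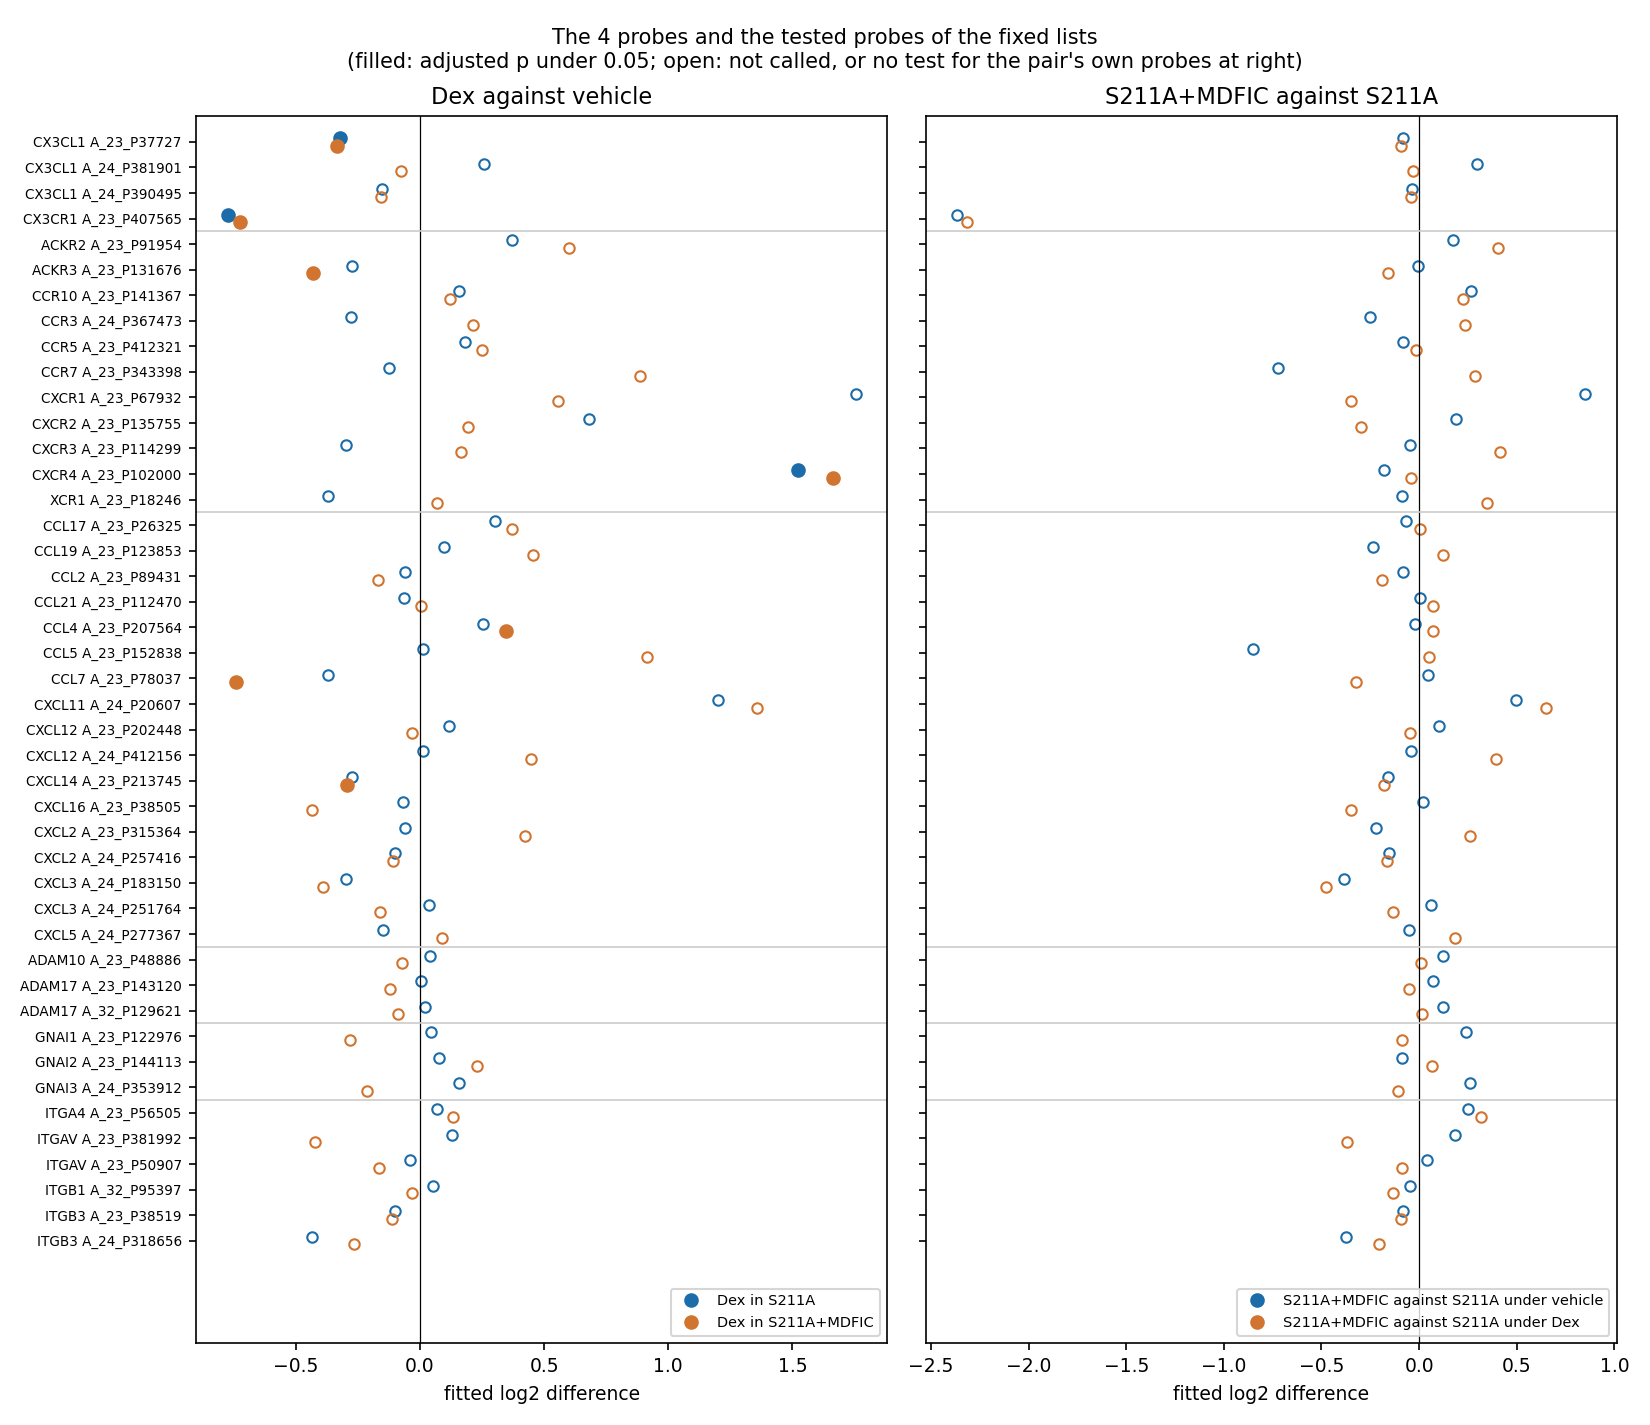
Fitted log2 differences (horizontal axis) of the 4 probes of the pair and of the tested probes of the listed receptors, chemokines, proteases, G protein subunits and integrins, for Dex (left) and for MDFIC (right). Filled points passed an adjusted p of 0.05; at right the pair itself has no test. CXCR4 is the highest called value under Dex, at 1.52 and 1.66, and CX3CR1 is the lowest value at right, at -2.37 and -2.31.

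Of the genes located near the pair in the human genome, none was called for Dex or for MDFIC. Few probes were tested here. Of all probes, 6.14% and 9.41% were called for Dex and 0.736% and 0.311% for MDFIC, so the absence of calls says nothing particular about these genes. WDR48, close to CX3CR1, changed by -0.0404 and -0.18 with Dex in the cells without and with MDFIC, and by 0.12 and -0.0188 with MDFIC under vehicle and Dex. CSRNP1 changed by -0.39 and -0.28 with Dex (limma adjusted p = 0.053 and 0.112), and by -0.0581 and 0.0472 with MDFIC. Its direction with Dex was that of CX3CR1 and of CX3CL1 probe A_23_P37727. CCL17, next to CX3CL1, changed by 0.30 and 0.37 with Dex, and both CIAPIN1 probes by 0.011 to 0.17. At an unadjusted p under 0.05, 1 of the 2 tested neighbours of CX3CR1 passed for Dex without MDFIC and 2 with it, and of the 3 tested probes next to CX3CL1, 0 and 2. The probes of CCR8 and CCL22 were not well above background on any array.

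Since CX3CR1 is best known from leukocytes, markers of other cells were set beside it. Of 8 probes of leukocyte and microglial genes, those of PTPRC, the pan-leukocyte phosphatase, and of P2RY12, a microglial receptor, were not well above background on any array. The 6 others, of CD14, ITGAM, CSF1R, CD68 and TREM2, entered the tests. For MDFIC limma called 0 of the 6 under vehicle and 0 under Dex, with 1 and 2 at an unadjusted p under 0.05. With 0.736% and 0.311% of all probes called, these counts are near the background. The summed processed signal of the 8 probes was 1125 to 1279 in S211A vehicle, 1316 to 1444 in S211A Dex, 1191 to 1349 in S211A+MDFIC vehicle and 1470 to 1708 in S211A+MDFIC Dex, as unscaled signals added over different probes. The part of these markers in the result was not tested. In S211A cells the tested markers went both ways with Dex: ITGAM changed by 0.39, CD68 by -0.53, CD14 by -0.0586, and the TREM2 probes by -0.16 and 0.32, none of them called. In S211A+MDFIC cells ITGAM changed by 0.18, CD68 by 0.15, CD14 by -0.005, and the TREM2 probes by 0.41 and -0.52, again none called. CSF1R, the receptor of macrophage colony-stimulating factor, rose with Dex by 0.39 in S211A (limma adjusted p = 0.000634) and 0.47 in S211A+MDFIC cells (limma adjusted p = 0.000182), and both calls were lost without scaling (limma adjusted p = 0.125 and 0.0561). For Dex, limma thus called 1 of the 6 markers without MDFIC and 1 with it, where 6.14% and 9.41% of all probes were called. With 6 probes, such counts say nothing particular about these genes. Whether fewer cells with the CX3CR1 transcript or less of it per cell lay behind its lower levels cannot be told apart in bulk RNA.

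The label of the line was set against kidney and fibroblast markers. All 8 probes of KRT8, KRT18, CDH1, EPCAM and PAX8, markers of kidney epithelium, were well above background on all arrays, as were 4 of 6 fibroblast probes, those of VIM and FN1. Of both COL1A2 probes, one was well above background on 0 and the other on 1 of 12 arrays. Detection of this kind was common: 26798 of 41000 probes passed a filter asking for it on every array. The leukocyte and microglial probes of CD14, ITGAM, CSF1R and CD68 and TREM2 probe A_23_P167941 met it too. Detection alone therefore does not tell these kinds of cells apart. Of 4 endothelial probes, 2 were tested. The tested VWF probe rose with Dex by 0.55 (limma adjusted p = 0.00202) and 0.42 (limma adjusted p = 0.00831). Its calls were lost with slide as a fixed block (limma adjusted p = 0.0839 and 0.0809), that in S211A also with normexp (limma adjusted p = 0.108) and that in S211A+MDFIC also without scaling (limma adjusted p = 0.119). CDH5 changed by 0.0705 and 0.14 and was not called (limma adjusted p = 0.912 and 0.766). The second VWF probe, well above background on 3 arrays, and the PECAM1 probe were not tested. CDH1 rose by 0.32 in S211A cells (limma adjusted p = 0.0463) and lost this call in 18 of 25 alternatives (called in 2 of 12 fits with 1 array left out). In S211A+MDFIC cells CDH1 went the other way, by -0.17, and was not called (limma adjusted p = 0.202).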

How the data were processed

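Cy3-labelled RNA of 12 samples was hybridised to one-colour Agilent arrays, per the labels' protocols. The deposited values are linear intensity readings, background-subtracted and detrended with Feature Extraction 12.0.0.7, and 0 or 1 flags of each spot (other columns), per the file headers. A table of the whole series, also deposited, repeats these intensity values without scaling. The processed signal was taken to log2, the 75th percentile over non-control probes was subtracted per array, 945 outlier spots were set to missing, and spots of 1 probe were averaged. A probe was tested if well above background on all 3 arrays of a group, with at least 2 values per group. The fit used R 4.3.3 and limma 3.58.1 over all 12 arrays, each probe apart, two-sided, with Benjamini-Hochberg adjustment over the 31232 probes, at 0.05. The fit was tested on simulated data. Figures were drawn with matplotlib 3.10.9.

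The members and lists were chosen with earlier results of these data known. The files do not pair accessions with gene names: names come from a hand-written list of RefSeq accessions, and probe sequences and positions are not used here. Named genes were all probes of the pair, up to 4 called probes per list, fixed neighbours, and the probes most correlated with each member. Replicates are biological per the labels. Precision is limited by having 3 arrays a group. Whether the replicate numbers pair the samples is not settled here, and the main fit treated the arrays as unpaired. Of 18 same-numbered pairs of arrays, 4 had deviations from their group means that correlated above 0.1 (range -0.25 to 0.24). A differently numbered pair, S211A Dex replicate 1 and S211A+MDFIC Dex replicate 2, reached 0.31. With groups of 3 such correlations cannot show or exclude a pairing.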

Additional observations from a re-analysis of the deposited data

How the results depend on the processing

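Each of the 12 arrays was left out in turn, and 13 other settings were tried. With slide as a fixed block each Dex change rests on the arrays of a shared slide, with a single array in a group. Calls lost there were lost in a comparison of fewer arrays, in which fitted changes moved as well. The reason for the lost calls was not tested. The fall of CX3CR1 with Dex was called in all 25 alternatives in both kinds of cells (-0.84 to -0.65 in S211A and -0.87 to -0.31 in S211A+MDFIC). The 25 are not separate supports. Leaving out an array of the cells not compared, or changing the probe filter or the variance moderation, keeps a Dex change and alters only its SE and adjusted p. The MDFIC differences of CX3CR1 moved by more than 1 replicate SD with normexp (-1.65 under vehicle and -1.31 under Dex), without scaling (-2.23 and -2.19) and with slide as a fixed block (-2.13 and -2.11). The calls of CX3CL1 probe A_23_P37727 were lost without scaling (-0.35 in S211A and -0.37 in S211A+MDFIC), with slide as a fixed block (-0.29 and -0.32) and, in S211A, with only the compared groups (-0.32). Its MDFIC differences moved without scaling (0.0496 under vehicle and 0.0314 under Dex) and with the slide block (-0.0272 under vehicle). Those of A_24_P390495 under vehicle moved without scaling (0.0932) and with the slide block (-0.17), and those of A_24_P381901 under vehicle with normexp (-0.0451) and the slide block (-1.19). Uncalled Dex changes of A_24_P381901 turned sign with the slide block (-0.81 in S211A, 0.16 in S211A+MDFIC) and when arrays were left out (-0.25 to 0.79 and -0.19 to 0.11). The uncalled difference between the Dex responses turned sign with quantile normalization (-0.0793 for CX3CR1, 0.0006 for A_23_P37727), with normexp (0.0468 for A_24_P390495), with the slide block (0.98 for A_24_P381901, 0.16 for A_24_P390495) and when arrays were left out (CX3CR1 -0.0275 to 0.11, A_23_P37727 -0.0444 to 0.0218, A_24_P381901 -0.87 to 0.17, A_24_P390495 -0.16 to 0.0815). The cause of these changes was not tested.

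With a replicate block, CX3CR1 fell by 0.77 in S211A (limma adjusted p = 0.000374) and by 0.72 in S211A+MDFIC (limma adjusted p = 0.000461), and the block changed no call of the pair. Among the listed genes it ended the calls of CCL4 (limma adjusted p = 0.0689) and CXCL14 (limma adjusted p = 0.0651). Signal over background limits CX3CR1 in S211A+MDFIC cells and A_24_P381901 in all groups.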
